A study of Mus musculus with 2 samples.

Results

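The platelet-derived growth factor (PDGF) family was followed through the bone repair niche by its 6 genes, the ligands Pdgfa, Pdgfb, Pdgfc and Pdgfd and the receptors Pdgfra and Pdgfrb, picked by symbol out of the 32285 genes counted. All 6 were detected in both libraries. Both libraries came from C57BL6 mice, for which the labels name no transgene. One library held the periosteum of the tibia with the hematoma or callus at day 1 post-fracture, and the other the same tissues at day 5 after musculoskeletal traumatic injury (MTI), in which a tibial fracture is combined with injury of the adjacent muscles. Tissue of 3 or 4 mice was pooled for a library and nuclei were sorted on a DNA dye, so all cell types could enter. The age of the mice is not given in the labels. With 1 library per condition there is no test between conditions, and since day and injury differ together the 2 libraries were not compared.

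PDGF ligands are secreted dimers that bind receptor tyrosine kinases on mesenchymal cells and drive their division and migration. PDGFRα is a common marker of fibroblasts and skeletal stem/progenitor cells (SSPCs), and PDGFRβ is shared by these cells and by the mural cells that coat vessels. PDGF-A and PDGF-B are released in active form, whereas PDGF-C and PDGF-D carry a CUB domain that proteases must remove before they can bind.

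Levels are given as UMIs of a gene per 1000000 UMIs (CPM), summed over the nuclei of a population. The 95% intervals are exact Poisson intervals for sums, exact conditional binomial intervals for ratios of 2 sums, and exact Clopper-Pearson intervals for shares of nuclei. They cover counting error only: nuclei of 1 library are not replicates, and the spread between mice is not in them. The day 5 library held 1446 barcodes with 5899407 UMIs, and the filters kept 1127 nuclei (median 2364 UMIs). The day 1 library held 9389014 UMIs in 48987 barcodes, of which 43464 had under 200 genes and stood for free RNA, and the filters kept 2405 nuclei (median 409 UMIs). The study also took out myogenic nuclei, which were kept here. It reported fewer nuclei for both libraries, most of all at day 1, so the nuclei used here are not the study's own sets. Both libraries shared 33 barcodes, of which 29 were among the retained nuclei at day 5. These included 16 myogenic nuclei and 1 stromal nucleus, and held 5 UMIs of Pdgfc, 3 of Pdgfra and at most 1 of each other member at day 5. Of the 29 myogenic nuclei at day 1, 14 had such a barcode.

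The 13 clusters of the day 5 library were named from marker genes, without the 6 PDGF genes or their pathway entering the clustering. A stromal cluster of 178 nuclei led by Tbx18, Matn3 and Col9a1 held UMIs of all 5 markers of injury-induced fibrogenic cells (IIFCs), all 6 of osteoblasts and all 6 of chondrocytes, at summed levels of 7152, 2087 and 1709 CPM, and is called stromal throughout. Macrophage-like nuclei formed a cluster of 194 led by Ppbp, Arg1 and Mmp12 and a cluster of 143 led by Ccl8, Cd4 and Selenop. At doubled resolution a cluster of 113 nuclei led by Cxcl3, Arg1 and Mmp12 was instead named monocyte, as were similar clusters under other alternatives. The Arg1 cluster may thus hold monocyte-like nuclei. The other named clusters were neutrophil-like (85 nuclei), lymphoid of mixed markers (32), led by Klrd1 and H2-Aa (27), osteoclast-like (29), endothelial-like (37), erythroid-like (32), myofibre-like (97) and muscle progenitor-like (26). All macrophage-like, neutrophil-like and lymphoid clusters and the Klrd1 cluster together are called immune (481 nuclei). The erythroid-like cluster also held UMIs of 11 of the 12 macrophage markers, at 3281 CPM against 645 CPM for the erythroid list. The 247 nuclei of the last 2 clusters stayed unnamed. They had median depths of 693 and 750 UMIs.

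Both receptors were concentrated in the stromal nuclei. These made up 15.8% of the nuclei and 23.7% of the UMIs, but held 92.0% of the Pdgfra UMIs and 84.5% of the Pdgfrb UMIs. The stromal level of Pdgfra, the gene of the receptor that binds PDGF-A, PDGF-B and PDGF-C, was 178 CPM (183 UMIs, interval 153 to 205 CPM), against 1.84 CPM in the immune nuclei (3 UMIs), which was 96.7-fold higher (interval 32.6 to 473). For Pdgfrb, which binds PDGF-B and PDGF-D, the stromal level was 190.3 CPM (196 UMIs, interval 165 to 219 CPM). In the immune nuclei it was 5.51 CPM (9 UMIs), a 34.5-fold difference (interval 17.8 to 76.6). No interval of another named cluster reached the stromal interval for either gene. Endothelial-like nuclei held no UMI of either receptor among 181601 UMIs, which allows up to 16.5 CPM, and osteoclast-like nuclei held none among 204507, which allows up to 14.7 CPM.

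**Figure D1:**
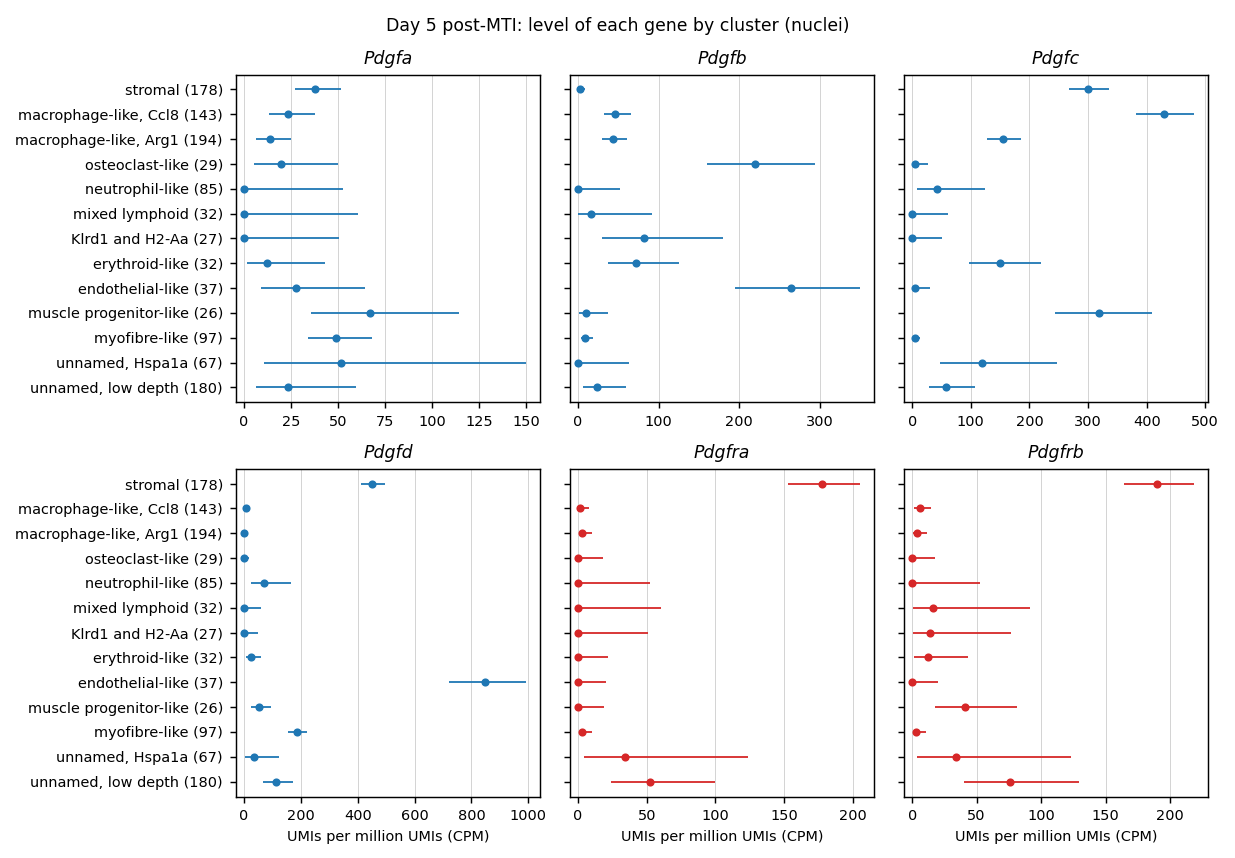
Level of each gene in the 13 clusters of the day 5 post-MTI library, in CPM on linear axes that differ between panels, with the number of nuclei in brackets. Points are summed UMIs over all nuclei of a cluster, bars are exact Poisson 95% intervals, ligands are blue and receptors red. Both receptors stood out in the stromal cluster, Pdgfc in stromal, macrophage-like and muscle progenitor-like clusters, Pdgfb in endothelial-like and osteoclast-like clusters and Pdgfd in endothelial-like and stromal clusters.

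The second level in the order belonged for both receptors to the unnamed cluster of low depth, with 52.5 CPM of Pdgfra (9 UMIs) and 75.9 CPM of Pdgfrb (13 UMIs). That cluster also carried the IIFC markers at 607 CPM and the myofibre markers at 2031 CPM, and its nuclei were not assigned to a population. The muscle progenitor-like cluster, led by Chodl and Pax7, held 8 Pdgfrb UMIs (41.1 CPM, interval 17.7 to 81.0) and no Pdgfra UMI. The levels of Pdgfrb in this and the unnamed clusters did not differ beyond their intervals. In the macrophage-like nuclei, which should lack both genes, 3 of 337 nuclei had a Pdgfra UMI (0.890%) and 6 of 337 a Pdgfrb UMI (1.78%). The macrophage-like clusters had median depths of 3154 and 4508 UMIs, close to the 3818 UMIs of the stromal cluster, where 70 of 178 nuclei (39.3%) had a Pdgfra UMI and 77 (43.3%) a Pdgfrb UMI. After every nucleus was thinned to 500 UMIs, the shares were 8.43% of stromal and 0.297% of macrophage-like nuclei for Pdgfra, and 11.2% and 0.297% for Pdgfrb.

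The receptor genes were also counted together in single stromal nuclei. Both were found in 40 stromal nuclei, 30 had only Pdgfra, 37 only Pdgfrb and 71 neither, and independent detection would give 30.3 nuclei with both. With nuclei thinned to 2000 UMIs, 10 of 124 nuclei had both against 9.29 under independence. At this depth the counts do not separate single-positive from double-positive nuclei.

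Within the stromal cluster summed receptor levels differed between groups, but detection at equal depth did not separate the groups. A split into 106 and 72 nuclei gave Pdgfrb levels of 174 CPM in the deeper group led by Ibsp and 301 CPM in the shallower one led by Pgr, a ratio of 1.73 (interval 1.19 to 2.46). Pdgfra was at 175 and 195 CPM there, with intervals that overlapped. No member of the 5 compared passed 2-fold there in either direction, which 5.92% and 17.6% of genes did. A finer clustering gave 3 groups of over 40 nuclei and one of 4 nuclei. Pdgfrb was highest, at 379.5 CPM (39 UMIs, interval 269.9 to 519), in a group of 67 nuclei led by Ttn and Pi15, against 192 CPM in a group of 65 led by Nell2 and Rspo2 among other genes and 155 CPM in a group of 42 with Smpd3 and Panx3 among its leading genes. The first differed 1.98-fold (interval 1.32 to 2.91) from the second and 2.45-fold (interval 1.61 to 3.70) from the third. Pdgfra had another order: 228 CPM in the Nell2 group (interval 187 to 275), 117 CPM in the Smpd3 group and 107 CPM in the Ttn group. The Nell2 group was 1.94-fold above the Smpd3 group (interval 1.38 to 2.77).

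The groups differed in more than their receptors. Col2a1, the cartilage collagen, reached 1482 CPM in the Smpd3 group against 10.5 CPM in the Nell2 group, and Postn, the matrix protein that marks IIFCs, 2954 CPM in the Nell2 group against 811 CPM in the Smpd3 group. The Ttn group was shallow, with a median of 1418 UMIs against 5861 and 10390, and Ttn, a myofibre gene, was at 428 CPM there against 40.1 CPM in the Nell2 group. The part of this depth and of muscle RNA in its receptor levels was not tested. The nuclei that the Ttn group shares with the Pgr group and with the mural cluster described below were not counted. The 4 nuclei of the last group were led by Pgr and Dpp4 and held 45 Pdgfd UMIs, 14 Pdgfra UMIs and no Pdgfrb UMI. With 4 nuclei this is a count and not a population.

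**Figure D2:**
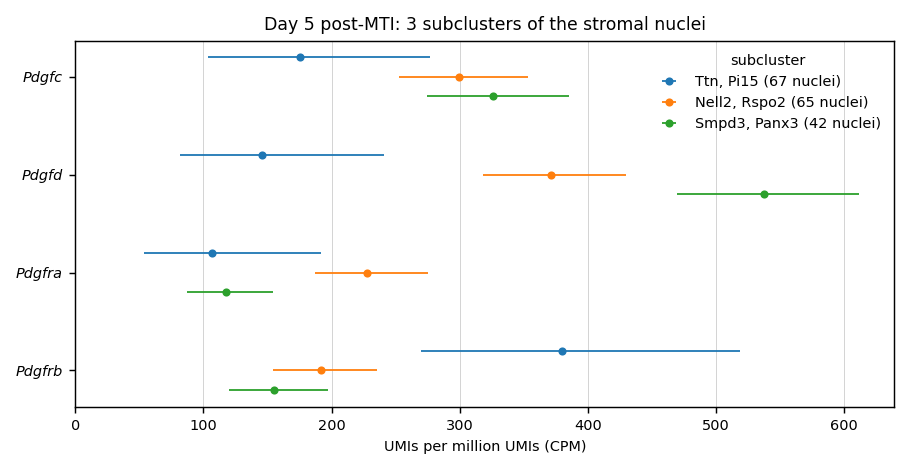
Levels of 4 PDGF genes in CPM (linear axis) in the 3 larger groups of the day 5 stromal nuclei, each named by 2 of its leading genes. Points are summed UMIs and bars exact Poisson 95% intervals. Pdgfrb was highest in the Ttn group at 379.5 CPM, Pdgfra in the Nell2 group at 228 CPM and Pdgfd in the Smpd3 group at 537 CPM, the group of 4 nuclei not being plotted.

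No mural cluster was found at the resolution of the methods, and the 9 pericyte and smooth muscle markers were instead spread over clusters, with 622 CPM in the stromal and 1079 CPM in the muscle progenitor-like cluster. At doubled resolution a cluster of 84 nuclei was led by Olfr78, Myh11 and Trpc6. It held Pdgfrb at 324 CPM (56 UMIs), 7.66-fold above all other nuclei (interval 5.56 to 10.4) and 1.99-fold above the remaining stromal nuclei (interval 1.43 to 2.72). It also held 23 Pdgfra UMIs (133 CPM) and Pgr and Pla1a among its leading genes. When nuclei were instead assigned one by one from their own markers, 16 were mural, with 36 Pdgfrb UMIs (403 CPM) and no Pdgfra UMI in 89352 UMIs, which allows up to 33.6 CPM. Pdgfrb UMIs were thus found under both definitions, and Pdgfra UMIs only in the cluster of 84 nuclei. Pgr and Pla1a were also leading genes of the 4 stromal nuclei that held 14 Pdgfra UMIs. Whether all 84 nuclei are mural was not tested. The stromal class fell from 178 to 113 nuclei at doubled resolution, so this cluster overlaps the stromal groups above. Both sets are called mural nuclei below.

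The 4 ligand genes differed in where their levels were highest, and populations shared several of them. Between stromal and immune nuclei, 4 of the 6 members were at least 2-fold higher in the stromal nuclei and 1 at least 2-fold lower, where 22.7% and 20.8% of the 10461 genes with at least 20 UMIs in both sums together lay that far to either side. The median ratio of stromal over immune was 18.5 over the members and 0.976 over all those genes. The immune nuclei contributed 49.8% of the Pdgfc UMIs and 37.2% of the Pdgfb UMIs, but 1.26% of the Pdgfd UMIs.

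**Figure D3:**
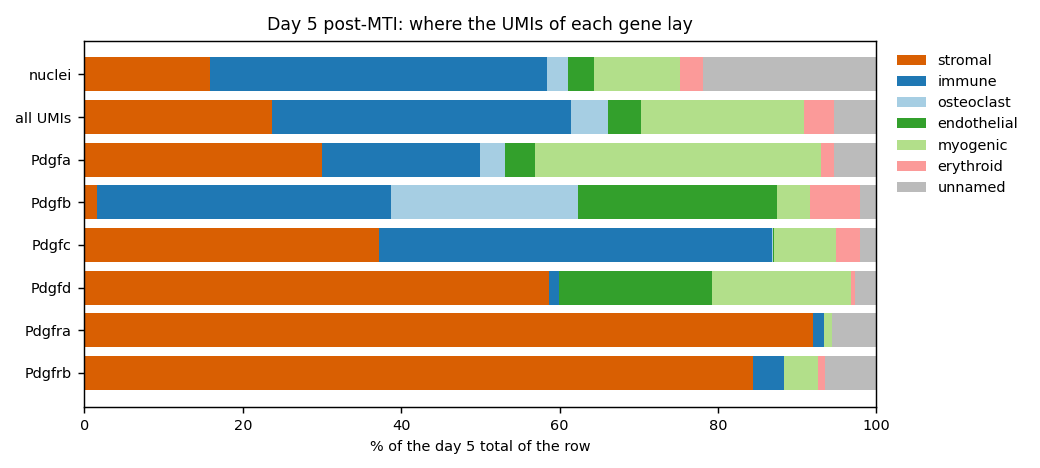
Share of the retained nuclei, of all UMIs and of each gene's UMIs that lay in each class of day 5 post-MTI nuclei, in percent, as stacked bars that each add up to the whole row. Stromal nuclei were 15.8% of the nuclei and held 92.0% of Pdgfra and 84.5% of Pdgfrb UMIs, while Pdgfb was divided over immune (37.2%), endothelial (25.1%) and osteoclast (23.6%) classes.

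Pdgfc was the ligand gene shared by macrophage-like and stromal nuclei. Its highest level was in the Ccl8 macrophage-like cluster at 429.7 CPM (297 UMIs, interval 382 to 481), followed by the muscle progenitor-like cluster at 319 CPM (62 UMIs, interval 244 to 408) and the stromal cluster at 300 CPM (309 UMIs, interval 267.5 to 335). In the muscle progenitor-like cluster, the 15 nuclei with a Pdgfc UMI held the IIFC markers at 1201 CPM and the 11 without one at 327 CPM, and the part of stromal RNA in this level was not tested. The second and the third did not differ beyond counting error (ratio 1.06, interval 0.795 to 1.40). The Arg1 macrophage-like cluster had 154 CPM (114 UMIs, interval 127 to 186). Thus the Ccl8 cluster was 2.78-fold above the Arg1 cluster (interval 2.23 to 3.48) and 1.43-fold above the stromal cluster (interval 1.22 to 1.69). Of the 3 members with enough UMIs for the comparison of both macrophage-like clusters, 1 passed 2-fold towards the Ccl8 cluster, as did 7.61% of all genes compared, and none passed 2-fold the other way, as 5.65% did. Over the whole classes, stromal and immune levels of Pdgfc were close (ratio 1.18, interval 1.02 to 1.38).

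Osteoclast-like and endothelial-like nuclei held hardly any Pdgfc. A single UMI was found in the 29 osteoclast-like nuclei and a single one in the 37 endothelial-like nuclei. Osteoclasts form by fusion of cells of the monocyte and macrophage lineage, and their Pdgfc level of 4.89 CPM was 0.0170 times that of the macrophage-like nuclei (interval 0.0004295 to 0.0953). Myofibre-like nuclei held 3 UMIs, 4.31 CPM, and neutrophil-like nuclei 3 UMIs, 42.7 CPM (interval 8.80 to 125). The mural nuclei described above held 33 Pdgfc UMIs (190.7 CPM) as a cluster and 21 (235 CPM) when assigned one by one. The erythroid-like cluster showed 149 CPM of Pdgfc, but the 9 of its nuclei with a Pdgfc UMI held 301 UMIs of macrophage markers and 1 of erythroid markers, so these UMIs lay in nuclei with macrophage rather than erythroid markers.

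Subclustering of the immune nuclei graded the 2 ligands differently. The highest Pdgfc level was 604 CPM (184 UMIs, interval 520 to 698), in 76 nuclei led by Ccl8 and Cd163, which also had the highest level of Mrc1 (CD206, a mannose receptor of resident and repair macrophages) at 2784 CPM. Pdgfc then fell to 394 CPM in 33 nuclei led by Fabp4 and Mmp12 among other genes, 255 CPM in 76 nuclei led by Dnase1l3 and Vcam1, 189 CPM in 43 nuclei led by Ptgr1 and Gclm, 89.2 CPM in 72 nuclei led by Vcan and Olr1, and 37.3 CPM (7 UMIs) in 46 nuclei led by Hmga2 and Tnf. The extremes of these groups, which were not named one by one, were Ccl8 and Tnf and differed 16.2-fold (interval 7.695 to 40.8). The neighbours 255 and 189 CPM did not differ beyond counting error, nor did 89.2 and 37.3 CPM.

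Pdgfb, the gene of the ligand that binds both receptors, did not follow this order. Its highest immune levels were 85.4 CPM (16 UMIs, interval 48.8 to 139) in the Tnf group and 72.9 CPM (24 UMIs, interval 46.7 to 108) in the Dnase1l3 group. The Tnf group did not differ beyond counting error from the Dnase1l3, Vcan and Fabp4 groups or from the lymphoid group led by Ikzf3. The Ccl8 group had 26.3 CPM (8 UMIs), 0.308 times the Tnf group (interval 0.114 to 0.762). The Ptgr1 group, which had the highest level of Hmox1, a haem-degrading enzyme, at 1859 CPM, held no Pdgfb UMI among 201171 UMIs, which allows up to 14.9 CPM, yet held 38 Pdgfc UMIs. In the Ccl8 over Tnf comparison, 2 of the 6 members had enough UMIs. Pdgfc passed 2-fold in one direction and Pdgfb in the other, as 9.02% and 7.98% of the genes compared did. These groups are the extremes of Pdgfc, and the Tnf group has the highest Pdgfb. Passing 2-fold thus followed from choosing them, and the shares do not gauge it. In single macrophage-like nuclei both ligand genes were found together in 15 of 337, against 14.2 under independence.

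**Figure D4:**
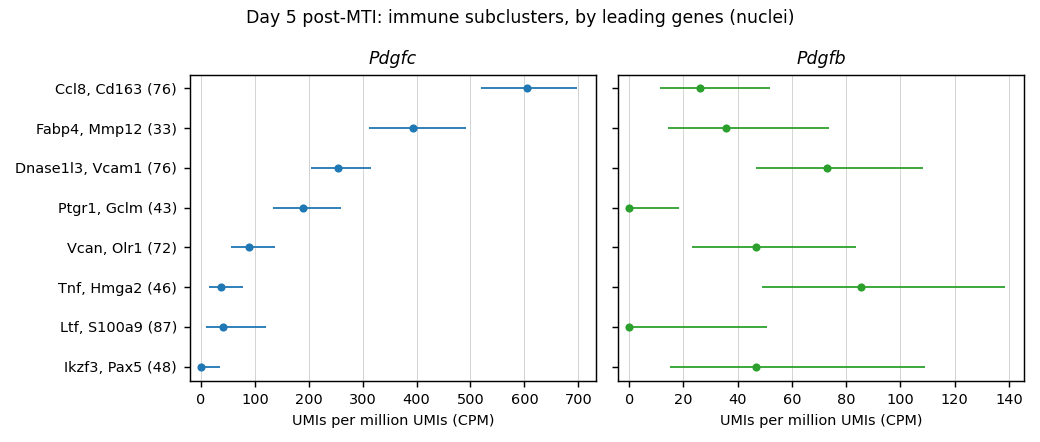
Levels of Pdgfc and Pdgfb in CPM (linear axes that differ between panels) in 8 subclusters of the day 5 immune nuclei, each named by 2 of its leading genes, with the number of nuclei in brackets. Points are summed UMIs and bars exact Poisson 95% intervals. Outside the Ltf and Ikzf3 groups Pdgfc ran from 604 CPM in the Ccl8 group to 37.3 CPM in the Tnf group, where Pdgfb was highest at 85.4 CPM, and the lymphoid group led by Ikzf3 held no Pdgfc UMI.

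Endothelial-like and osteoclast-like nuclei had the highest Pdgfb levels. The endothelial-like level was 264 CPM (48 UMIs, interval 195 to 350), 7.68-fold above all other nuclei (interval 5.42 to 10.7). The osteoclast-like level was 220.0 CPM (45 UMIs, interval 160.5 to 294), 6.23-fold above all other nuclei (interval 4.36 to 8.75) and 4.91-fold above the macrophage-like nuclei (interval 3.28 to 7.31). Both populations did not differ from each other beyond counting error (ratio 1.20, interval 0.783 to 1.85). They were 3.28% and 2.57% of the nuclei and held 25.1% and 23.6% of the Pdgfb UMIs. Endothelial cells are known to secrete PDGF-BB, which draws pericytes to vessels, and preosteoclasts are another known source.

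The next levels were those of the Klrd1 cluster (6 UMIs, 82.4 CPM), the erythroid-like cluster (12 UMIs, 71.7 CPM) and the macrophage-like clusters with 46.3 CPM (Ccl8) and 43.4 CPM (Arg1), and these neighbours did not differ beyond their intervals. The 7 nuclei with a Pdgfb UMI in the erythroid-like cluster held 136 UMIs of macrophage and 3 of erythroid markers. In the stromal nuclei Pdgfb was nearly absent, with 3 UMIs (2.91 CPM, interval 0.601 to 8.51), 0.0670 times the immune level (interval 0.0135 to 0.204). Platelets, which store PDGF, are another possible carrier in a hematoma. Of the 9 megakaryocyte and platelet markers, 4 had UMIs in the Arg1 cluster, at a summed 27.1 CPM. One of the 9, Ppbp, was among the leading genes of that cluster, while Gp1bb had no UMI in any cluster. The part of platelet RNA in the Pdgfb levels was not tested.

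Pdgfd was a ligand gene of endothelial-like and stromal nuclei, and its level in mural nuclei rested on few nuclei. The endothelial-like level was 848 CPM (154 UMIs, interval 719 to 993), with a Pdgfd UMI in 30 of 37 nuclei (81.1%), and the stromal level was 451 CPM (465 UMIs, interval 411 to 494), with a UMI in 60 of 178 nuclei (33.7%). The ratio between them was 1.88 (interval 1.56 to 2.26). Pdgfd was thereby the reverse of Pdgfc in 2 respects: endothelial-like nuclei held 154 Pdgfd UMIs and 1 Pdgfc UMI, and macrophage-like nuclei 5 Pdgfd UMIs and 411 Pdgfc UMIs. In the osteoclast-like nuclei no Pdgfd UMI was found, which allows up to 14.7 CPM. Stromal over immune, Pdgfd differed 73.7-fold (interval 39.7 to 155). The mural nuclei described above held 88 Pdgfd UMIs as a cluster (508.5 CPM, interval 408 to 626), in 11 of 84 nuclei. Assigned one by one they held 61 (683 CPM, interval 522 to 877), in 3 of 16 nuclei. Stromal levels under these 2 definitions were 429 and 450 CPM.

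Among endothelial-like nuclei, 16 of 37 had UMIs of both Pdgfb and Pdgfd, against 15.4 under independence. Both members passed 2-fold over the other nuclei there, as 12.7% of genes did, and Pdgfc, Pdgfra and Pdgfrb were at most 0.5 times the other nuclei, as were 33.8% of genes. In the osteoclast-like nuclei Pdgfb was the 1 member above 2-fold (11.5% of genes) and 4 members were at or below 0.5 (38.2% of genes). Of the 3 larger stromal groups, the Smpd3 group with high Col2a1 had the most Pdgfd, 537 CPM (229 UMIs), and the Ttn group the least, 146 CPM (15 UMIs). The group of 4 nuclei stood above them at 1694 CPM.

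The third level of Pdgfd was that of the myofibre-like cluster, 185 CPM from 129 UMIs, and it rested on few nuclei. UMIs were found in 11 of its 97 nuclei, 5 of these held 89.1% of them, 1 nucleus alone held 64, and without those 5 the level was 22.5 CPM. The 11 nuclei carried myofibre markers at 61820 CPM, close to the 63850 CPM of the other 86, and endothelial markers at 23.3 CPM against 52.8 CPM. Their muscle progenitor markers, which include embryonic and neonatal myosin heavy chains, were at 3150 CPM against 1009 CPM. IIFC markers were at 38.9 CPM against 66.9 CPM, and pericyte and smooth muscle markers at 489.9 CPM against 319 CPM. The 11 nuclei were also deeper, with a median of 12420 against 5328 UMIs, and the part of other cells in their Pdgfd level was not tested.

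Such uneven spread over nuclei also touched other levels. In the endothelial-like cluster the 5 nuclei with the most UMIs held 53.9% of the Pdgfd and 52.1% of the Pdgfb UMIs, and without them the levels were 496 and 162 CPM. In the osteoclast-like cluster Pdgfb was 125 CPM without such nuclei, and in the muscle progenitor-like cluster Pdgfc was 123 CPM. Levels in the larger clusters moved as well: without such nuclei the Arg1 cluster had 18.3 CPM of Pdgfb and 93.1 CPM of Pdgfc, and the Ccl8 cluster 27.1 and 340.5 CPM. In the stromal cluster Pdgfa was then 22.4 CPM, Pdgfc 239 CPM, Pdgfd 300.1 CPM, Pdgfra 145 CPM and Pdgfrb 152 CPM. Counting intervals are therefore too narrow for the spread between nuclei.

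Pdgfa was the ligand gene with the fewest UMIs, 130 in the retained nuclei. PDGF-A signals through PDGFRα homodimers. Its levels were 66.8 CPM in the muscle progenitor-like cluster (13 UMIs, interval 35.6 to 114), 48.8 CPM in the myofibre-like cluster (34 UMIs, interval 33.8 to 68.2) and 37.9 CPM in the stromal cluster (39 UMIs, interval 26.9 to 51.8), and none of these differed from its neighbour in the order beyond counting error. The unnamed cluster led by Hspa1a lay between the first 2 at 51.3 CPM (3 UMIs). Pdgfa was higher still in the mural nuclei, at 86.7 CPM as a cluster (15 UMIs, 3.14-fold above all other nuclei, interval 1.701 to 5.395) and at 134 CPM in the 16 nuclei assigned one by one (12 UMIs in 6 nuclei). The myogenic nuclei together held 36.2% of its UMIs and were 2.19-fold above all other nuclei (interval 1.498 to 3.17). Without the 5 nuclei with the most Pdgfa UMIs, the myogenic level fell from 52.75 to 36.2 CPM and the myofibre-like level to 26.6 CPM. Stromal and immune levels without such nuclei were 22.4 and 9.98 CPM. With nuclei thinned to 500 UMIs, 1 of 123 myogenic nuclei (0.813%) had a Pdgfa UMI, against 0.976% of all retained nuclei. Detection at equal depth thus did not set the myogenic nuclei apart. Stromal nuclei were 2.38-fold above immune nuclei (interval 1.41 to 4.07), where Pdgfa was at 15.9 CPM. At doubled cluster resolution that ratio was 1.78 and its interval reached 0.985.

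Levels of different genes are not directly comparable as CPM. Set per length, their order depended on which length was used. Per kb of gene span, from start to end with introns, the stromal levels were 4.77 for Pdgfrb, 3.87 for Pdgfra, 2.15 for Pdgfd, 1.77 for Pdgfa, 1.69 for Pdgfc and 0.152 for Pdgfb, in CPM per kb. Per kb of merged exons, Pdgfd (143) and Pdgfc (59.0) came before Pdgfrb (34.7), Pdgfra (17.7), Pdgfa (12.1) and Pdgfb (0.700). The receptors thus led on one scale and the CUB domain ligands on the other. The libraries are primed at the 3′ end and counted intronic reads, so neither length is exact and neither order ranks the expression of the genes.

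The genes lie on mm10 at chromosome 5 138976014 to 138997370 on the minus strand (Pdgfa, 21.4 kb), chromosome 15 79995874 to 80014977 on the minus strand (Pdgfb, 19.1 kb), chromosome 3 81036416 to 81214040 on the plus strand (Pdgfc, 178 kb), chromosome 9 6168584 to 6378850 on the plus strand (Pdgfd, 210.3 kb), chromosome 5 75152292 to 75198215 on the plus strand (Pdgfra, 45.9 kb) and chromosome 18 61045150 to 61085061 on the plus strand (Pdgfrb, 39.9 kb). Each of the first 5 overlaps 1 counted gene, on the opposite strand. These overlapping genes held between 0 and 20 UMIs in the retained day 5 nuclei.

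Among the 13 clusters, each member's level was compared with that of all genes with at least 100 UMIs. Most like Pdgfra were Dkk2 (Pearson r = 0.96 of log2(CPM + 10)), Sfrp2 (0.96), both modulators of Wnt signals, and the cartilage matrix gene Matn3 (0.96). For Pdgfrb they were Sh3rf3 (0.91), Nova1 (0.90) and Scn7a (0.90), and Pdgfra and Pdgfrb correlated with each other at 0.85. The 3 genes nearest to Pdgfc were Lhfpl2 (0.89), Cep164 (0.84) and the growth factor gene Igf1 (0.84). Pdgfd was nearest to Ranbp17 (0.94), Lmcd1 (0.93) and Adamts1 (0.92), Pdgfb to Xiap (0.89) and Xxylt1 (0.89), and Pdgfa to Gstz1 (0.93), Akap1 (0.92) and 2210408I21Rik (0.91). The 13 points share 1 library and differ in depth, and these values are a description.

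The genes around the ligands and receptors were compared between the same populations. Of 37 genes that process the ligands, bind them, relay or end the receptor signal or respond early to it, 35 had at least 20 UMIs in stromal and immune nuclei together. Of these, 8 were at least 2-fold higher in stromal and 11 at least 2-fold higher in immune nuclei, where 22.7% and 20.8% of all genes lay, so that the stromal count was at the background. The median ratio of stromal over immune was 0.870, against 0.976 over all genes. By role, 3 of 5 tested processing enzymes were stromal and 2 immune, and of 4 extracellular partners 2 were stromal and 1 immune. Of 6 attenuators of the receptor, 0 were stromal and 3 immune, and of 14 relay genes 2 lay on each side.

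The proprotein convertase genes Pcsk5 and Pcsk6, whose products cleave precursor proteins, were at 817 and 106 CPM in stromal nuclei, 74.1-fold (interval 46.6 to 126) and 34.6-fold (interval 14.4 to 109) above immune nuclei. Plat, which encodes tissue plasminogen activator, the protease known to cut the CUB domain off PDGF-C, had 33 UMIs in stromal nuclei and none in immune nuclei. It was thus at least 17.4-fold higher, taking 3 counts over the immune nuclei as the floor, and the counting interval of its ratio began at 13.4. Macrophage-like nuclei, which held Pdgfc at 288 CPM, thus held no Plat UMI. Plat was also present in endothelial-like nuclei at 22.0 CPM.

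Sparc, a matrix protein that binds PDGF-B, was 32.2-fold higher in stromal nuclei (670 CPM, interval of the ratio 22.8 to 46.85) and Cspg4, the NG2 proteoglycan that binds PDGF-A, 8.94-fold (60.2 CPM, interval 4.67 to 18.8). In the other direction stood Csf1r, the receptor of the same kinase family that macrophages use, at 235.8 CPM in immune against 7.77 CPM in stromal nuclei and 597 CPM in osteoclast-like nuclei. Flt3, of the same family, had 29 UMIs in immune and 1 in stromal nuclei, a ratio of 0.0547 (interval 0.00134 to 0.330). The phosphatase gene Ptprj, whose product acts on PDGFRβ, the adaptor gene Grb2 and the adaptor gene Sh2b3 were at 0.215, 0.200 and 0.0944 times the immune level in the stromal nuclei. The receptor-bearing stromal nuclei thus had 357 CPM of Ptprj against 1661 CPM in the immune nuclei.

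At day 1 post-fracture the question was whether any level stood above free RNA, since nuclei were shallow. With the limits of the study both receptor genes did in stromal nuclei, and no ligand gene did in immune nuclei. Free RNA, taken from the 43464 barcodes under 200 genes, held all 6 genes, at 21.3 CPM for Pdgfa, 12.8 for Pdgfb, 37.1 for Pdgfc, 47.0 for Pdgfd, 21.5 for Pdgfra and 25.7 for Pdgfrb. The intervals of all retained nuclei over free RNA included a ratio of 1 for all 6 genes, with ratios between 0.919 and 1.32. With the limits of the study, 65 nuclei were named stromal, led by Cxcl5 and Il1r1 and with collagen genes Col3a1 and Col1a2 among the leading genes. They held 6 Pdgfra UMIs, 7.99-fold above free RNA (interval 2.89 to 17.8), 5 Pdgfrb UMIs, 5.56-fold above it (interval 1.785 to 13.2), 1 Pdgfc UMI, and none of the other ligands. For Pdgfrb this did not hold under 2 alternatives that left 18 stromal nuclei each: with a minimum of 500 genes it had no UMI (interval of the ratio 0 to 7.04), and with nuclei assigned by their own markers 1 UMI (ratio 3.72, interval 0.0937 to 21.0). With that minimum, Atf3 and Xirp2 were also among the leading genes of the stromal cluster. Thus 2 members lay at least 2-fold above free RNA and 3 at or below 0.5 times it, against 19.1% and 56.6% of the genes compared. The 231 immune nuclei, named from 3 of 4 pan-immune markers, held 1 to 3 UMIs of each ligand gene and 5 Pdgfra UMIs, 2.91-fold above free RNA with an interval of 0.930 to 6.94 that included 1. This class was not stable: without doublets no cluster was named immune, and by their own markers 6 nuclei were.

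The study's mitochondrial limit for this library was 0.5%. With the limit of 5% used for the other library, 5414 nuclei were kept and the same kind of cluster held 419 nuclei, led by Tnfaip6, Col3a1, Il1r1 and Has1, with all 5 IIFC markers. Pdgfra and Pdgfrb had 32 UMIs each there, 158 CPM (interval 108 to 224), which was 7.38-fold (interval 4.87 to 10.9) and 6.16-fold (interval 4.09 to 9.02) above free RNA. Pdgfc was at 94.1 CPM (19 UMIs), 2.54-fold above free RNA (interval 1.502 to 4.04), while Pdgfa, Pdgfb and Pdgfd had intervals that included 1. Of the 6 members 3 were thus at least 2-fold above free RNA, as were 13% of the genes compared, and none was at or below 0.5, as 24.5% were. Shares of these nuclei with a UMI were 6.68% for Pdgfra and 6.92% for Pdgfrb, against 0.702% and 1.05% in the 570 immune nuclei, with median depths of 404 UMIs in the stromal and 336 in the macrophage-like cluster.

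Macrophage-like nuclei at day 1, 517 with the limit of 5%, had no ligand gene above free RNA. Pdgfc was at 10.4 CPM (2 UMIs), 0.279 times free RNA (interval 0.0336 to 1.02), and the stromal nuclei were 9.08-fold above them (interval 2.19 to 80.4). Pdgfb had 5 UMIs, 25.9 CPM, at a ratio to free RNA of 2.01 whose interval of 0.638 to 4.88 included 1. Of the members, 1 lay above 2-fold and 1 at or below 0.5, against 11.9% and 21.1% of genes. At this depth a Pdgfb level in the macrophage-like nuclei was not separable from free RNA.

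At day 1 Pdgfa was the ligand gene that stood above free RNA in 2 clusters led by muscle or muscle injury genes, though not in every such cluster. In the 444 myofibre-like nuclei led by Mylk4, Myh4 and Asb2 it was at 84.4 CPM (17 UMIs), 3.96-fold above free RNA (interval 2.25 to 6.56), and in an unnamed cluster of 247 nuclei led by the stress and muscle injury genes Atf3, Nes, Sox4 and Xirp1 at 127 CPM (14 UMIs), 5.97-fold above it (interval 3.18 to 10.3). In the latter cluster Pdgfa was the 1 member above 2-fold and none was at or below 0.5, against 14.1% and 36.8% of genes. Neither this cluster nor the myofibre-like one was in a planned comparison. Both are described because Pdgfa was high there, so the shares do not gauge it. With the limits of the study, a cluster of 262 nuclei led by Atf3 and Nes held 10 Pdgfa UMIs, 3.53-fold above free RNA (interval 1.66 to 6.68). These nuclei also pass the limit of 5%, so this is not a separate observation. The 2 cluster levels with the limit of 5% did not differ beyond their intervals of 49.2 to 135 CPM and 69.5 to 213 CPM. Pdgfb had no UMI in the myofibre-like nuclei. Pdgfa had none in a second myofibre-like cluster of 29 nuclei with the limit of 5%. With the limits of the study it had none in the 29 myogenic nuclei, which allows up to 219 CPM. Both of these clusters were led by Zfp949, Myh2 and Rnpc3, so these are not separate observations. Of the 29 nuclei with the limits of the study, 14 had a barcode found in both libraries. All 3952 unnamed nuclei with the limit of 5%, the Atf3 cluster included, held Pdgfa at 16.2 CPM (30 UMIs, interval 10.9 to 23.1). An unnamed cluster of 39 nuclei led by Cfd, Lrg1 and Hp held 4 UMIs each of Pdgfrb, 7.15-fold above free RNA (interval 1.93 to 18.6), and Pdgfc, 4.96-fold above it (interval 1.34 to 12.85). It too was in no planned comparison and is described because these levels were high.

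**Figure D5:**
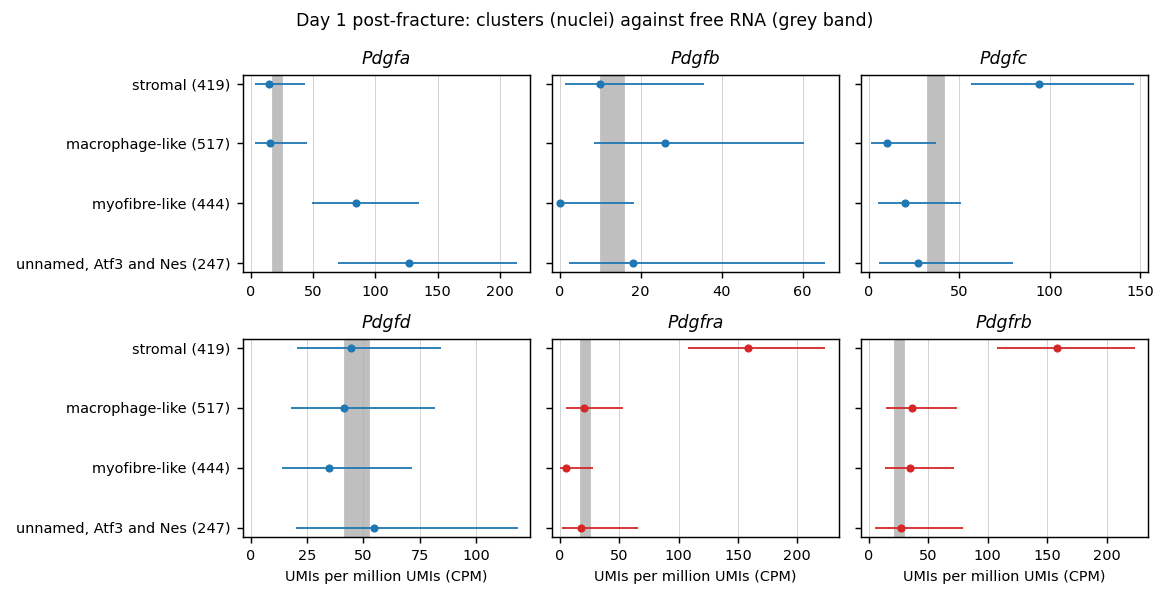
Levels of the 6 genes in 4 clusters of the day 1 post-fracture library with a mitochondrial limit of 5%, in CPM (linear axes that differ between panels), with the number of nuclei in brackets. Points are summed UMIs, bars exact Poisson 95% intervals, and the grey band is the same interval for barcodes under 200 genes. Pdgfra and Pdgfrb (158 CPM each) and Pdgfc (94.1 CPM) lay above the band in stromal nuclei, and Pdgfa in myofibre-like (84.4 CPM) and Atf3 (127 CPM) nuclei.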

How the data were processed

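Single-nucleus RNAseq was made from 2 samples, 1 per condition, with the 10x 3′ chemistry. The authors aligned reads with Cell Ranger 7.0.1 to mm10, exons and introns included. Per the labels and file contents, the deposited values are raw UMI counts for each gene and barcode. The labels also name a human reference, but all gene identifiers are mouse. The release of the gene annotation is not given in the sources used here. Positions and lengths came from GENCODE vM21 on the same build, with overlapping exons merged.

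From the deposited counts, nuclei were filtered with the study's limits: 200 to 5000 genes, mitochondrial UMIs under 0.5% (day 1) or 5% (day 5) and ribosomal UMIs under 2.5% or 2%. Each library was clustered alone in Seurat 5.3.0 (R 4.3.3) with 20 or 30 principal components and resolution 1.7 or 1, on 2000 variable genes without the 6 members and 37 pathway genes. The study's other datasets are not used here. A cluster was named where at least 3 markers with at least 3 UMIs were 1.5-fold above other nuclei, the pooled fold was at least 2.5 (2 with a marker among the 10 leading genes), and a class marker was among the 100 leading genes. Leading genes had at least 10 UMIs. Members and lists were chosen with earlier results of these data known, and the pooled folds and the subclustering of stromal nuclei (15 components, resolution 0.5, doubled for the 3 groups described) and immune nuclei (20 components, resolution 1.5) were set after PDGF levels per cluster had been seen.

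Named were the 6 members, the pathway genes at least 2-fold apart between stromal and immune nuclei with at least 20 UMIs (at most 10, by size), the 3 genes most like each member over clusters, and leading genes. One gene that this rule names is not reported here. Doublets were searched with scrublet (scanpy 1.11.5), which called 3 nuclei at day 1 and 0 at day 5. They were kept in the main results. Leaving them out at day 1 changed the clusters, and none was then named immune. A count of 0 allows 3 counts. Counts for 10461 genes of the stromal over immune comparison were simulated as Poisson sums, without spread between nuclei. The interval covered the true ratio for 100 of 100 genes changed 2-fold, 98.0% of those changed 4-fold and 96.2% of unchanged genes. It excluded a ratio of 1 for 76%, 97% and 3.83% of them. The interval assumes this same model, so these shares check the computation and not the coverage in these data. Sums and intervals were computed with scipy 1.17.1 on Python 3.11.15, with pandas 2.3.3 and numpy 2.4.6 for tables. There were 6 alternatives, and leaving out shared barcodes was added after the data had been seen. No p-value is given, with 1 library per condition.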

Additional observations from a re-analysis of the deposited data

Results flagged for a closer look

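PDGF UMIs also lay in the 319 day 5 barcodes that the filters removed, which no comparison uses. They held 60 UMIs of Pdgfa, 73 of Pdgfb, 391 of Pdgfc, 241 of Pdgfd, 137 of Pdgfra and 104 of Pdgfrb. Of these barcodes, 21 had over 5000 genes and carried 231 of the Pdgfc, 193 of the Pdgfd and 77 of the Pdgfra UMIs, at 386, 323 and 129 CPM. The levels in the retained nuclei were 192 CPM for Pdgfc, 183 CPM for Pdgfd and 45.9 CPM for Pdgfra. Whether these barcodes are single nuclei was not tested.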

How the results depend on the processing

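No paired analysis was possible because each condition had 1 library and no result comes from a test. At day 5 all 49 alternative values lay within the counting interval of the main value. They cover only the stromal over immune ratio of each member and the endothelial-like over other nuclei ratio of Pdgfb. Other day 5 results, such as those between macrophage-like clusters and of subclusters, were not put through this check. For Pdgfc, stromal over immune, the ratio with a mitochondrial limit of 0.5% was 1.13 and its interval included 1 (0.949 to 1.34). Those without doublets repeat the main values, since no doublet was called there, and could not differ. For Pdgfra, stromal over immune, the ratio ranged from 59.7 with a minimum of 500 genes (5 immune UMIs) to 188 with a mitochondrial limit of 0.5% (1 immune UMI), against 3 immune UMIs in the main value. At day 1, 52 of 62 alternative values lay within the interval of the main value. Against free RNA, stromal Pdgfrb reversed to 0 with a minimum of 500 genes (18 nuclei, no UMI), where stromal Pdgfa rose to 9.10 (4 UMIs, from 0). Beside Cxcl5 and Il1r1, the leading genes of these 18 nuclei included Atf3 and Xirp2, which also led the day 1 Atf3 cluster with high Pdgfa. The part of such nuclei in both values was not tested. With nuclei assigned by their own markers (18 stromal, 6 immune), stromal Pdgfra was 22.3, stromal Pdgfrb 3.72 with an interval that included 1, stromal Pdgfc 0 and immune Pdgfa, Pdgfb, Pdgfc and Pdgfd 0. Immune Pdgfa was 0 with members kept in the clustering and immune Pdgfb 0 at doubled resolution. Each of these rests on few UMIs. No immune cluster was named at day 1 with a minimum of 500 genes or without doublets, and no mural cluster at day 5 except at doubled resolution or nucleus by nucleus. Depth limits the day 1 ligand levels.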
